A study of Mus musculus with 18 samples.

Results

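The peroxisome proliferator-activated receptors (Ppara, Ppard and Pparg), the retinoid X receptors (Rxra, Rxrb and Rxrg) and the estrogen-related receptors (Esrra, Esrrb and Esrrg) were followed in the ventricular myocardium of obese, leptin-deficient mice. The 9 genes were taken by symbol from the annotation of the array, among 18193 genes with a probe set, and all 9 were bright enough to be among the 12328 genes tested. They had 19 probe sets in all, and each gene is described by the one with the highest mean signal unless another is named. RNA was measured on 18 Affymetrix arrays, 1 array per sample, in 4 groups. Leptin hearts (n = 5) came from C57Bl/6J ob/ob mice aged to 6 months and then given leptin by osmotic mini-pump for 1 month. Calorie restricted hearts (n = 5) came from ob/ob mice of the same age whose food was limited for 1 month to the intake of the leptin animals. Ad libitum hearts (n = 4) came from ob/ob mice of the same age that went on eating freely for that month. Wild type hearts (n = 4) came from C57Bl/6J mice with intact leptin, whose age is given as 6 to 8 months in the description of the study and as 6 months in the sample descriptions. All ob/ob groups carry the same loss of leptin, and the leptin and calorie restricted groups, matched for food intake, differ in the hormone. As described, they also differ in the mini-pump of the leptin mice and the limited food of the calorie restricted mice. These cannot be told apart from the hormone. The labels do not say whether each array came from a separate animal, and p-values here measure only the spread between these samples.

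All 3 receptor families are nuclear receptors, transcription factors that bind DNA and switch genes on when a ligand or a coactivator joins them. PPARs sense fatty acids and bind DNA as pairs with an RXR, which also partners the thyroid hormone, retinoic acid, vitamin D and oxysterol receptors. Estrogen-related receptors have no known natural hormone, depend on coactivators such as PGC-1alpha (Ppargc1a), and in heart muscle drive genes of the mitochondrial respiratory chain and the citric acid cycle, while PPAR-alpha drives genes of fatty acid uptake, storage and oxidation.

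Promoter sequence is shown for the receptors that differed between groups, and for one target gene from each of the lists described further on, because the receptors act on DNA through the hexamer AGGTCA, singly or in pairs. The 250 bases before the RefSeq start site are given 5′ to 3′ on the strand of the gene, in the build GRCm38.p6, with capitals at a match on either strand. Ppara is on the plus strand at chr15:85735526-85735775, Rxrg (the downstream one of its 2 start sites) on the plus strand at chr1:167618015-167618264, Ucp3 on the plus strand at chr7:100472741-100472990, and Atp5g3 on the minus strand at chr2:73911327-73911576.
Ppara: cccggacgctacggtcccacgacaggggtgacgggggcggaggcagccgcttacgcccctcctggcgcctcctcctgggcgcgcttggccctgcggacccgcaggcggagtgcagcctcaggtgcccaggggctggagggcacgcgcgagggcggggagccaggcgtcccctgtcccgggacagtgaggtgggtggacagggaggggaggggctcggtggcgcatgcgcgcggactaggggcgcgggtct
Rxrg: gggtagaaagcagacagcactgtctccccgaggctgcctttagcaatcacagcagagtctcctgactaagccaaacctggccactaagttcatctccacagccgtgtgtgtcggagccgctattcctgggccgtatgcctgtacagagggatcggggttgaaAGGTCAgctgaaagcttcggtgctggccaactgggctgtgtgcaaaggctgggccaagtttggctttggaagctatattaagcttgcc
Ucp3: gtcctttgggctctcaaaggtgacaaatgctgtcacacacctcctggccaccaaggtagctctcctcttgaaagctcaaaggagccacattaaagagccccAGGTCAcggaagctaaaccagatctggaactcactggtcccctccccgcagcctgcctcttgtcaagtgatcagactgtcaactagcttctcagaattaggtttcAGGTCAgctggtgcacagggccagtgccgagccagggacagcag
Atp5g3: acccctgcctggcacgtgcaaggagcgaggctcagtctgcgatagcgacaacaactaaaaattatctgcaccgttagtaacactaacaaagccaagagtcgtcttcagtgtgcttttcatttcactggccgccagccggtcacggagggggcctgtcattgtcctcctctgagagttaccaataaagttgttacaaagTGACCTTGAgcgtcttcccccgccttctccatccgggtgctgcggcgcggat
In these 250 bases Ppara had no AGGTCA, Rxrg had 1 and Ucp3 had 2, while the match in Atp5g3 is TGACCTTGA, which reads TCAAGGTCA on the opposite strand and holds AGGTCA within it. Over windows of the same kind that run from 250 bases before to 50 bases after a start site, AGGTCA was present in 16.3% of the 32851 windows of all genes, in 4 of the 18 windows of the 9 receptors (1 of Rxrg, 1 of Rxra and 2 of Pparg), in 8 of 27 windows of the PPAR responsive genes and in 5 of 24 windows of the ERR responsive genes. The pair AGGTCANAGGTCA, allowed 1 mismatch, was in 0.554% of all windows and in none of the windows of the receptors or of either list. TCAAGGTCA was in 0.423% of all windows and in 3 windows of the ERR responsive genes, those of Atp5g3, Timm8b and Sdhd, of which the Timm8b and Sdhd windows overlap and hold the same site. Most windows of either list had no AGGTCA, so the Ucp3 and Atp5g3 windows shown are not typical of their lists. A match describes letters in a short window, and a window without one says only that these letters are not in it.

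The arrays were alike in signal, with medians of 22.3 to 31.8 and between 16.7% and 22.7% of probe sets at or below the pseudocount of 5.13 that was added before taking log2. The probe set of Lep, the leptin gene, averaged 5.34 in leptin, 8.06 in calorie restricted, 7.72 in ad libitum and 4.11 in wild type hearts, too dim to check the genotype. The summed signal of 4 ventricular cardiomyocyte markers was 24968 to 35210 in leptin, 30140 to 38790 in calorie restricted, 28743 to 33385 in ad libitum and 25825 to 28235 in wild type hearts, so that calorie restricted and ad libitum arrays lay above wild type. None of these 4 markers was called by limma, and in calorie restricted against wild type 3 had an unadjusted p under 0.05 (median log2 change 0.27). After quantile normalization their median was -0.0016 there, and -0.0077 in ad libitum against wild type (0.17 as reported). The summed signal of the 4 atrial markers Myl7, Myl4, Sln and Nppa stood apart in calorie restricted replicates 2 and 3, at 14304 and 14725. It was 1220 to 2883 in the other 3 calorie restricted arrays, 1526 to 2782 in leptin, 519 to 2180 in ad libitum and 1273 to 3060 in wild type hearts. The calls of receptors and listed genes in comparisons with the calorie restricted group were therefore repeated in other fits. Those fits left out the 2 arrays or took the mean log2 atrial signal as a covariate. The calls lost are named beside the results. Of the PPAR responsive genes described further on, not every lost call is named, and counts are given. Summed macrophage markers were 1119 to 1501 in leptin, 702 to 954 in calorie restricted, 991 to 1171 in ad libitum and 1147 to 1735 in wild type hearts. Of the 4 macrophage markers, 3 were called higher in leptin against calorie restricted. Calorie restricted hearts had 2 of the 4 called lower against ad libitum and 2 against wild type. Summed endothelial markers were 1247 to 1506 in leptin, 923 to 1163 in calorie restricted, 1148 to 1754 in ad libitum and 996 to 1553 in wild type hearts. Of the 4 endothelial markers, 1 was called higher in leptin against calorie restricted and 1 lower in calorie restricted against ad libitum. Of 4 fibroblast markers, Col1a1 and Lum were higher in leptin than in calorie restricted hearts (log2 changes of 1.80 and 1.09), although the summed signal overlapped, at 3697 to 4801 in leptin and 3396 to 4425 in calorie restricted hearts. In that comparison 2 of the 4 were called and 3 had a positive log2 change. Against ad libitum and against wild type, calorie restricted hearts each time had 2 of the 4 called lower and 1 with a positive change. Among adipocyte markers, Adipoq had mean signals of 3.06 to 17.6 and Fabp4, which other cells of the heart also express, 4999 to 5456. Of 7 adipocyte markers listed, 2 were bright enough to test, and neither was called in any comparison. Their median log2 change was -0.34 in leptin against calorie restricted, where 1 of the 2 was positive. It was 0.17 in calorie restricted against ad libitum and against wild type, where both were positive. Cidea, a brown adipocyte marker, averaged 459 ± 35.8 in leptin, 758 ± 84.1 in calorie restricted, 416 ± 23.5 in ad libitum and 427 ± 52.6 in wild type hearts (SD). It was called in all 3 comparisons with calorie restriction (log2 changes of -0.71 in leptin against calorie restricted, 0.85 in calorie restricted against ad libitum and 0.82 in calorie restricted against wild type). Ucp1, which defines brown fat, was too dim to test, at 1.37 to 4.78 in leptin, 1.42 to 49.9 in calorie restricted, 1.82 to 4.64 in ad libitum and 1.59 to 5.27 in wild type hearts. In bulk tissue, fewer cells of a type and less RNA per cell cannot be told apart, and the part of these cell types in the results below was not tested.

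Of the 9 receptors, 2 passed the test in some comparison and 7 in none. Ppara was lower in calorie restricted hearts than in leptin or wild type hearts, and Rxrg was lower in leptin than in calorie restricted hearts. Over 6 comparisons of 9 receptors, 3 of 54 differences were called, that is, had a limma adjusted p under 0.05 after Benjamini-Hochberg adjustment over all 12328 genes, and 37 of 54 were under 0.2 in size on the log2 scale. In the limma F-test over the 4 groups, which called 14.0% of all genes, only Ppara passed among the receptors (adjusted p = 0.0128), with Rxrg at 0.0578, Esrrb at 0.102 and Ppard at 0.147. When the 4 groups were put in order of their mean for each receptor, none of the 27 pairs of neighbouring groups was called and every such pair overlapped.

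**Figure D1:**
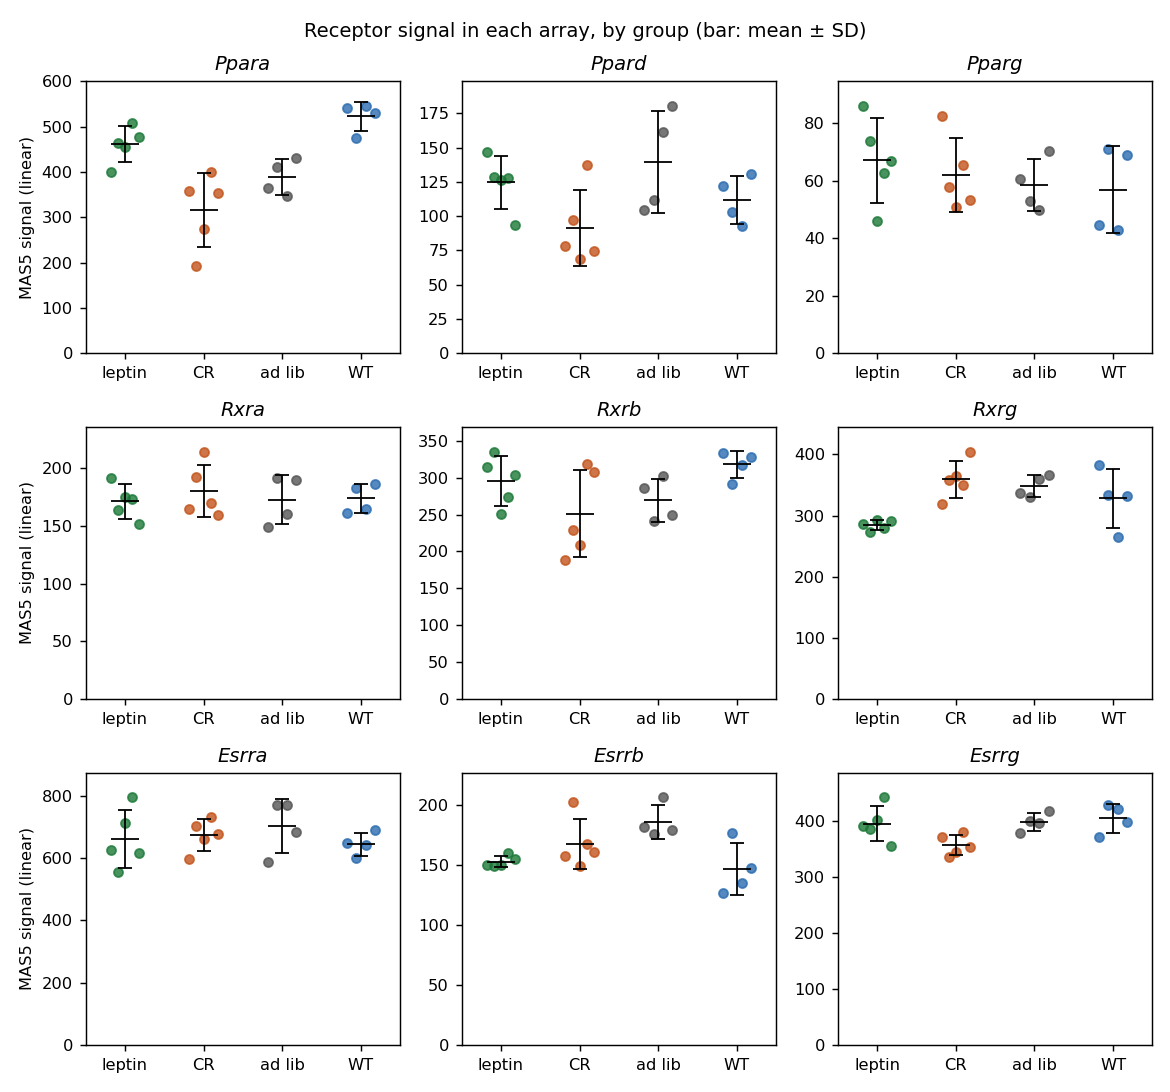
MAS5 signal (linear scale, from 0) of the 9 receptors in each of the 18 arrays, by group, with the group mean ± SD as a bar; CR is calorie restricted, ad lib is ad libitum and WT is wild type. Ppara is lowest in calorie restricted hearts, where 2 arrays lie at 193 and 274, and the 5 leptin arrays of Rxrg lie together between 272 and 293.

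Ppara encodes PPAR-alpha, the fatty acid sensor of heart, liver and other tissues that burn fat. Its signal was 399, 465, 456, 509 and 478 in leptin hearts and 357, 193, 274, 400 and 355 in calorie restricted hearts. It was 365, 412, 346 and 431 in ad libitum hearts, and 541, 475, 546 and 530 in wild type hearts. The wild type arrays were all above both the calorie restricted and the ad libitum arrays, the leptin arrays overlapped those of wild type, and only the highest calorie restricted array reached the lowest leptin array.

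Against calorie restriction, Ppara was higher in leptin hearts, at 461 ± 39.95 in leptin and 316 ± 82.3 in calorie restricted hearts (SD, n = 5 each). The log2 change was 0.58 ± 0.15 (SE; 95% interval 0.26 to 0.89; limma adjusted p = 0.0140; two-sided exact permutation p = 0.0159). Replicates 2 and 3, the calorie restricted arrays with high atrial signal, were also the 2 lowest for Ppara. Without them Ppara averaged 371 ± 25.5 in calorie restricted hearts (SD, n = 3), and the difference was 0.31 and not called (adjusted p = 0.0643). With atrial signal as a covariate it was 0.37 (adjusted p = 0.0844), and in a fit of the leptin and calorie restricted arrays alone it was 0.58 (adjusted p = 0.0579).

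Against wild type, Ppara was lower in calorie restricted hearts, at 316 ± 82.3 in calorie restricted and 523 ± 32.5 in wild type hearts (SD, n = 5 and 4). The log2 change was -0.76 ± 0.16 (SE; 95% interval -1.09 to -0.43; limma adjusted p = 0.00430; two-sided exact permutation p = 0.0159). The call held without calorie restricted replicates 2 and 3 (-0.49, adjusted p = 0.00966) and with the atrial covariate (-0.66, adjusted p = 0.00307). In ad libitum hearts Ppara averaged 389 ± 39.5 (SD, n = 4), with no overlap with wild type and a log2 change of -0.43 that was not called (adjusted p = 0.344; exact permutation p = 0.0286, the smallest that 4 arrays against 4 allow). Calorie restricted against ad libitum gave -0.33 (adjusted p = 0.248), leptin against ad libitum 0.25 (adjusted p = 0.507) and leptin against wild type -0.18 (adjusted p = 0.705). Comparisons that share a group of arrays are not independent of each other.

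**Figure D2:**
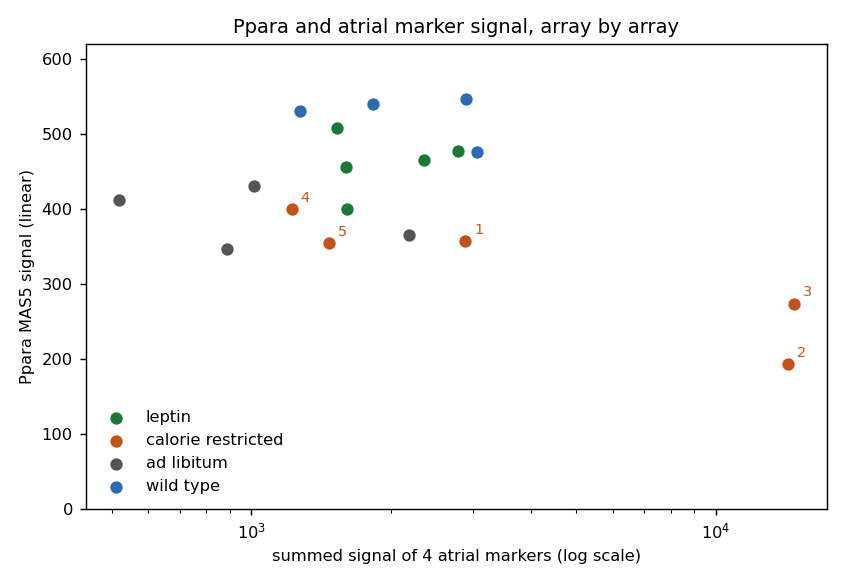
Ppara MAS5 signal (linear axis) against the summed signal of 4 atrial markers (log axis) in each of the 18 arrays, coloured by group, with the calorie restricted replicates numbered. Calorie restricted replicates 2 and 3 lie apart on both axes, and the other 3 calorie restricted arrays have Ppara signals of 355 to 400 at atrial sums like those of other groups.

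Both other Ppara probe sets went the same way in these comparisons. In a fit over all 34945 probe sets with 1 gene symbol, leptin against calorie restricted was 0.56 for 1457721_at (adjusted p = 0.0225) and 0.56 for 1439675_at (adjusted p = 0.0596). Calorie restricted against wild type was -0.66 for 1457721_at (adjusted p = 0.0149) and -0.45 for 1439675_at (adjusted p = 0.184). Ad libitum against wild type was smaller there, at -0.18 for 1457721_at and -0.08 for 1439675_at. For leptin against wild type the probe sets differed in sign, at -0.18 for 1449051_at and 0.11 for 1439675_at, and neither value was called.

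Of the genes tested, with unnamed cDNA clones and Gm-numbered genes passed over, 3 lay closest to Ppara in pattern over the 18 arrays. They were Tdrd3, Hk2 and Dnajb14. Their root mean square difference from Ppara, in log2 deviation from each gene's own mean, was 0.168, 0.177 and 0.182, against 0.360 for the deviation of Ppara itself. Hk2 encodes hexokinase 2, which commits glucose to use in muscle. Its level was 1417 to 1793 in leptin, 945 to 1482 in calorie restricted, 1531 to 1749 in ad libitum and 1789 to 1999 in wild type hearts, so that the calorie restricted arrays lay below all ad libitum and wild type arrays. Hk2 changed by 0.51 in leptin against calorie restricted (limma adjusted p = 0.00340), by -0.52 in calorie restricted against ad libitum (adjusted p = 0.00889) and by -0.67 in calorie restricted against wild type (adjusted p = 7.86e-04). These genes were picked for their likeness, so their values describe the pattern and test nothing about Ppara.

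Ppard encodes PPAR-delta, the widely expressed PPAR, which like PPAR-alpha drives fatty acid oxidation in muscle. Its signal was 147, 129, 126, 128 and 93.6 in leptin hearts and 78.1, 97.0, 68.6, 137 and 74.8 in calorie restricted hearts. It was 104, 112, 161 and 180 in ad libitum hearts, and 122, 103, 92.5 and 131 in wild type hearts. Of the calorie restricted arrays, 4 lay below every ad libitum array and replicate 4 lay among them. Ppard did not pass the limma test in calorie restricted against ad libitum (log2 change -0.59 ± 0.20, SE; 95% interval -1.01 to -0.18; adjusted p = 0.0848) or in leptin against calorie restricted (0.46, adjusted p = 0.110). Both differences passed without calorie restricted replicate 4 (-0.75, adjusted p = 0.0195, and 0.61, adjusted p = 0.0226), and with the atrial covariate they were smaller (-0.31, adjusted p = 0.533, and 0.25, adjusted p = 0.452). The one other Ppard probe set was below the filter, with mean signals of 1.99 to 2.53.

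Pparg encodes PPAR-gamma, the regulator of fat cell formation, and had 1 probe set. Its signal was 86.1, 73.8, 45.9, 62.7 and 67.0 in leptin hearts, 82.6, 57.7, 50.9, 65.5 and 53.4 in calorie restricted hearts, 60.5, 53.0, 49.9 and 70.2 in ad libitum hearts and 44.8, 71.0, 43.0 and 69.0 in wild type hearts. All 4 groups overlapped. The furthest apart were leptin and wild type, with a log2 change of 0.23 (95% interval -0.16 to 0.61; limma adjusted p = 0.684).

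Among the shared partners, Rxrg, the retinoid X receptor found mainly in muscle and brain, was the one that differed. Its signal was 286, 272, 293, 279 and 292 in leptin hearts and 318, 358, 365, 350 and 405 in calorie restricted hearts. It was 337, 331, 360 and 366 in ad libitum hearts, and 383, 333, 265 and 331 in wild type hearts. The leptin arrays lay in a narrow band below every calorie restricted and ad libitum array, and wild type replicate 3 lay below them.

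Rxrg was lower in leptin hearts, at 285 ± 8.68 in leptin and 359 ± 31.0 in calorie restricted hearts (SD, n = 5 each). The log2 change was -0.33 ± 0.09 (SE; 95% interval -0.51 to -0.14; limma adjusted p = 0.0180; two-sided exact permutation p = 0.00794, the smallest that 5 arrays against 5 allow). Without calorie restricted replicates 2 and 3 the change was of like size, -0.32, and was not called (adjusted p = 0.0812), and in the fit over all probe sets it was also just short of the threshold (adjusted p = 0.0557). With the atrial covariate the call held (adjusted p = 0.0272). Ad libitum hearts averaged 348 ± 17.3 (SD, n = 4), and leptin against ad libitum was -0.29 and not called (adjusted p = 0.159). Closest to Rxrg in pattern were Nifk, Ywhag and Smarcd3, with root mean square differences of 0.0835, 0.0869 and 0.0928, against 0.172 for the deviation of Rxrg itself. Of these, Smarcd3, a muscle subunit of a chromatin remodelling complex, was lower in leptin than in calorie restricted hearts by a log2 change of -0.31 (adjusted p = 0.0106), and Ywhag, a 14-3-3 adaptor protein, by -0.24 (adjusted p = 0.0321).

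Rxra, the main retinoid X receptor of the heart, had signals of 192, 163, 175, 174 and 152 in leptin hearts, 165, 192, 214, 170 and 159 in calorie restricted hearts, 149, 191, 160 and 189 in ad libitum hearts, and 161, 183, 165 and 186 in wild type hearts. No 2 groups differed by more than 0.07 on the log2 scale, and the widest 95% interval of a difference, that of ad libitum against wild type, ran from -0.25 to 0.21. Rxrb, the broadly expressed member, had signals of 315, 335, 251, 273 and 303 in leptin hearts, 189, 230, 209, 319 and 308 in calorie restricted hearts, 286, 241, 302 and 249 in ad libitum hearts, and 334, 292, 318 and 329 in wild type hearts. In calorie restricted hearts 3 arrays of Rxrb lay below all other arrays and 2 lay among wild type. Calorie restricted against wild type was -0.36 for Rxrb and was not called (limma adjusted p = 0.101), but it passed without calorie restricted replicate 4 (-0.46, adjusted p = 0.0364) or replicate 5 (-0.44, adjusted p = 0.0492). Those are the 2 arrays that lay among wild type, so leaving either out widens the difference. Without calorie restricted replicates 2 and 3 Rxrb averaged 272 ± 72.1 there (SD, n = 3). With all 5 arrays it was 251 ± 58.9, and in wild type hearts 318 ± 18.6 (SD).

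**Figure D3:**
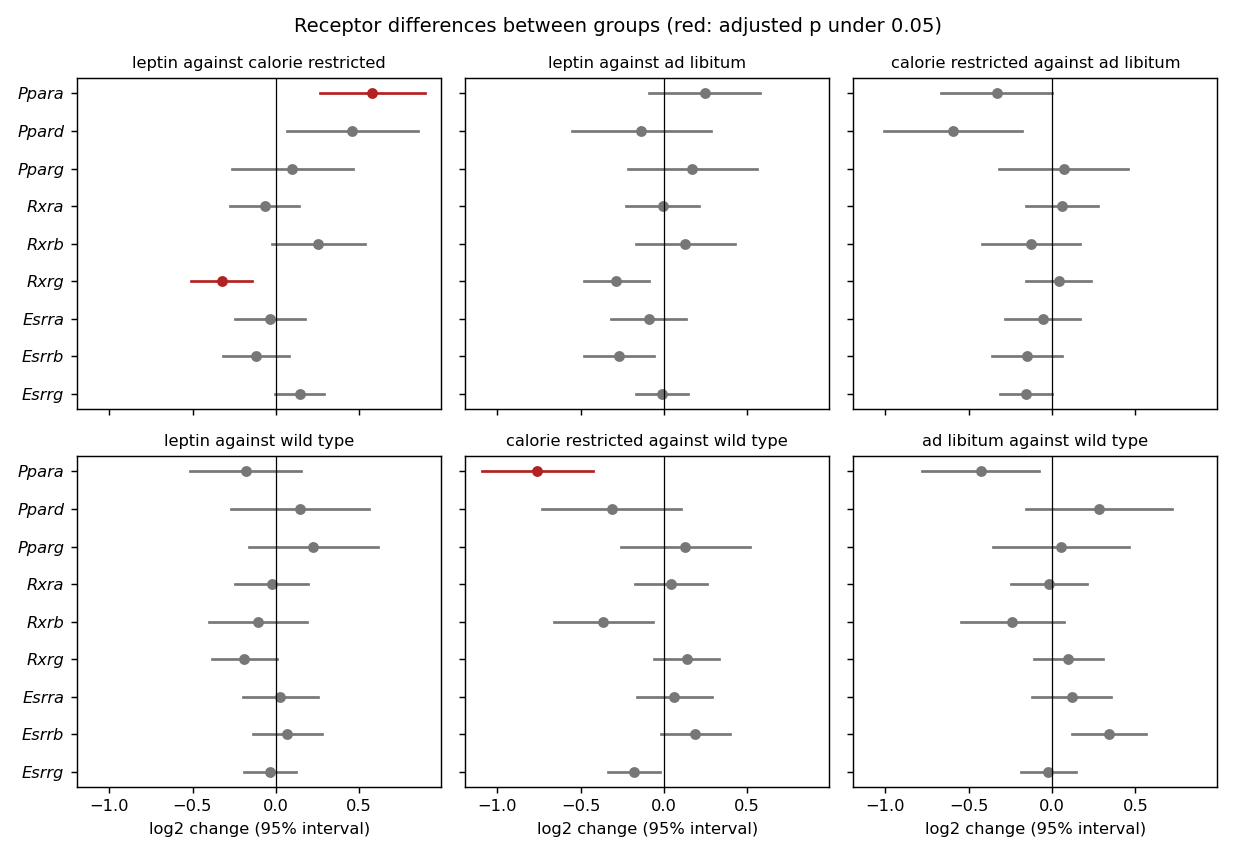
Log2 change of each receptor in the 6 comparisons (x axis; first-named group minus second), with points for the limma estimate and lines for the 95% interval; red marks an adjusted p under 0.05. Only Ppara (0.58) and Rxrg (-0.33) in leptin against calorie restricted and Ppara (-0.76) in calorie restricted against wild type are red.

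Esrra encodes ERR-alpha, the receptor through which PGC-1alpha drives much of the mitochondrial programme. Its signal was 626, 556, 714, 795 and 615 in leptin hearts, 595, 704, 660, 733 and 676 in calorie restricted hearts, 588, 770, 770 and 685 in ad libitum hearts, and 648, 599, 643 and 689 in wild type hearts. All groups overlapped, and the furthest apart, ad libitum and wild type, differed by 0.12 on the log2 scale (95% interval -0.12 to 0.36; limma adjusted p = 0.775).

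Esrrb encodes ERR-beta, known best from stem cells and the inner ear. It had signals of 150, 149, 150, 160 and 155 in leptin hearts and 157, 202, 149, 167 and 161 in calorie restricted hearts. It had 182, 176, 206 and 179 in ad libitum hearts, and 127, 177, 135 and 147 in wild type hearts. All ad libitum arrays lay above all leptin arrays, and wild type replicate 2 alone reached the lowest ad libitum array. Neither difference was called by limma: ad libitum against wild type was 0.34 ± 0.10 (SE; adjusted p = 0.199) and leptin against ad libitum -0.27 ± 0.10 (SE; adjusted p = 0.212; exact permutation p = 0.00794). The 2 other Esrrb probe sets did not pass either, and 1441921_x_at had the opposite sign in ad libitum against wild type (-0.18). In leptin against ad libitum the values were smaller there, at -0.09 for 1422986_at and -0.00016 for 1441921_x_at. In calorie restricted against wild type 1422986_at had 0.46 (limma adjusted p = 0.0584 in the fit over all probe sets). There 1436926_at, the probe set described, had 0.19 and 1441921_x_at 0.02.

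Esrrg encodes ERR-gamma, which with ERR-alpha supports the oxidative metabolism of the heart after birth. Its signal was 392, 385, 402, 442 and 355 in leptin hearts, 371, 336, 345, 380 and 353 in calorie restricted hearts, 378, 400, 397 and 418 in ad libitum hearts, and 371, 429, 422 and 398 in wild type hearts. The calorie restricted arrays were at the low end of a range that overlapped the other groups. Calorie restricted against wild type was -0.18 ± 0.07 (SE; 95% interval -0.33 to -0.02; limma adjusted p = 0.131), and the other Esrrg probe sets had values of 0.22 and 0.11 there, also not called.

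Counted by comparison, leptin against calorie restricted called Ppara and Rxrg, 2 of 9 receptors, where limma called 15.4% of all genes (3 of 9 at an unadjusted p under 0.05, against 28.7%), and 1 of 9 (Rxrg) did not overlap, against 11.6% of all genes. Calorie restricted against wild type called 1 of 9 receptors, where 12.6% of all genes were called (3 of 9 at an unadjusted p under 0.05, against 26.1%), and 1 of 9 (Ppara) did not overlap, against 14.4% of all genes. Calorie restricted against ad libitum called 0 of 9 by limma, where 6.37% of all genes were called (1 of 9 at an unadjusted p under 0.05, against 20.2%), and 0 of 9 did not overlap, against 9.76%. Leptin against ad libitum called 0 of 9 by limma, where 0.852% of all genes were called (2 of 9 at an unadjusted p under 0.05, against 14.3%), and 2 of 9 (Rxrg and Esrrb) did not overlap, against 5.64%. Ad libitum against wild type called 0 of 9 by limma, where 0.308% of all genes were called (2 of 9 at an unadjusted p under 0.05, against 10.7%), and 1 of 9 (Ppara) did not overlap, against 7.42%. Leptin against wild type called 0 of 9 by limma, where 0.00811% of all genes were called (0 of 9 at an unadjusted p under 0.05, against 10.5%), and 0 of 9 did not overlap, against 3.39%. A share of 9 genes moves in large steps, and none of these counts sets the receptors apart from the background.

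Coregulators decide how strongly these receptors act. Of 18 listed, 16 were measured and tested, and the largest change was that of Ppargc1a, the coactivator shared by PPARs and ERRs. Its signal was 915, 1034, 866, 844 and 937 in leptin hearts, 659, 631, 733, 745 and 893 in calorie restricted hearts, 564, 538, 607 and 561 in ad libitum hearts, and 1152, 1181, 1250 and 1569 in wild type hearts. Wild type stood above all ob/ob arrays and ad libitum below all others. Its largest difference was that of ad libitum against wild type, -1.17 ± 0.11 (SE; limma adjusted p = 7.41e-05), where 1 of 16 coregulators was called beside 0.308% of all genes. Leptin against ad libitum was 0.69 ± 0.11 (SE; adjusted p = 0.00684), again the 1 called of 16, beside 0.852% of all genes. Calorie restricted against wild type was -0.81 ± 0.11 (SE; adjusted p = 1.82e-04), and leptin against calorie restricted was 0.33 ± 0.10 (SE; adjusted p = 0.0349), a call lost without calorie restricted replicates 2 and 3 (0.27, adjusted p = 0.179), with the atrial covariate (0.29, adjusted p = 0.132), and also when any of 7 single arrays was left out.

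In leptin against calorie restricted, 3 of 16 coregulators were higher and 1 lower, where 8.96% of all genes were higher and 6.40% lower, with a list median of 0.01 beside -0.02 for all genes. Lpin1, a lipid phosphatase that also acts as a coactivator of PPAR-alpha, was higher, at 1448 ± 198 in leptin and 1033 ± 214 in calorie restricted hearts (SD, n = 5 each; log2 change 0.50, limma adjusted p = 0.02002). Prdm16, a coregulator known from brown fat, was higher by 0.26 (adjusted p = 0.0480), which turned to -0.15 and was not called when its probe sets were averaged. Hdac3, the histone deacetylase of the nuclear receptor corepressor complex, was lower, at 359 ± 33.95 in leptin and 449 ± 11.1 in calorie restricted hearts (SD, n = 5 each; log2 change -0.32, adjusted p = 0.0109), and it was higher by 0.33 in calorie restricted against wild type hearts (adjusted p = 0.0150). Without calorie restricted replicates 2 and 3 none of the 4 calls in leptin against calorie restricted held, at log2 changes of 0.40 for Lpin1, 0.27 for Ppargc1a, 0.15 for Prdm16 and -0.32 for Hdac3 (adjusted p = 0.136, 0.179, 0.333 and 0.0559). The change of Hdac3 against wild type was also of like size there, 0.33, and was not called (adjusted p = 0.0628). With the atrial covariate Lpin1 was 0.33 and Prdm16 0.19, neither called (adjusted p = 0.121 and 0.220).

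The other receptors that pair with RXR could be tested for 7 of 13, the rest being too dim or not analysed here. Thra, thyroid hormone receptor alpha, was the 1 of 7 (14.3%) called in each of the 3 comparisons with calorie restriction. That share was near those of all genes in leptin against calorie restricted (15.4%) and calorie restricted against wild type (12.6%). It was above that in calorie restricted against ad libitum (6.37%), though a share of 7 genes moves in large steps. Its signal was 470, 328, 343, 263 and 311 in leptin hearts, 488, 487, 452, 585 and 549 in calorie restricted hearts, 348, 355, 315 and 359 in ad libitum hearts, and 231, 318, 292 and 302 in wild type hearts. The calorie restricted arrays were above all others except leptin replicate 1. Leptin against calorie restricted was -0.59 ± 0.13 (SE; limma adjusted p = 0.00500), calorie restricted against ad libitum 0.56 ± 0.14 (adjusted p = 0.0192), and calorie restricted against wild type 0.84 ± 0.14 (adjusted p = 7.67e-04). The calls rest on 1454675_at, since all 3 were lost when the probe sets of Thra were averaged (-0.18, 0.03 and 0.31). With the atrial covariate, calorie restricted against ad libitum was 0.62 and not called (adjusted p = 0.0606), and it was also not called without ad libitum replicate 3 (adjusted p = 0.0657).

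Of the 32 genes listed as responding to PPARs, 25 were tested, and those that changed were all higher in calorie restricted hearts. Ppara itself had its lowest mean there. In calorie restricted against ad libitum hearts 14 rose and 0 fell, where 2.87% of all genes rose and 3.50% fell, with a list median of 0.38 beside 0.00 for all genes. Against wild type, 18 rose and 0 fell in calorie restricted hearts, where 5.61% of all genes rose and 7.03% fell (median 0.43, beside 0.00). In leptin against calorie restricted hearts 0 rose and 16 fell, where 8.96% of all genes rose and 6.40% fell (median -0.44, beside -0.02). In the other comparisons limma called 0 of 25, with 5 at an unadjusted p under 0.05 in leptin against ad libitum (all genes 14.3%), 3 in leptin against wild type (10.5%) and 7 in ad libitum against wild type (10.7%). The list was drawn up with earlier results of these data known, so its direction is not independent evidence. Cidea moved the same way in the same comparisons, and its part was not tested.

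**Figure D4:**
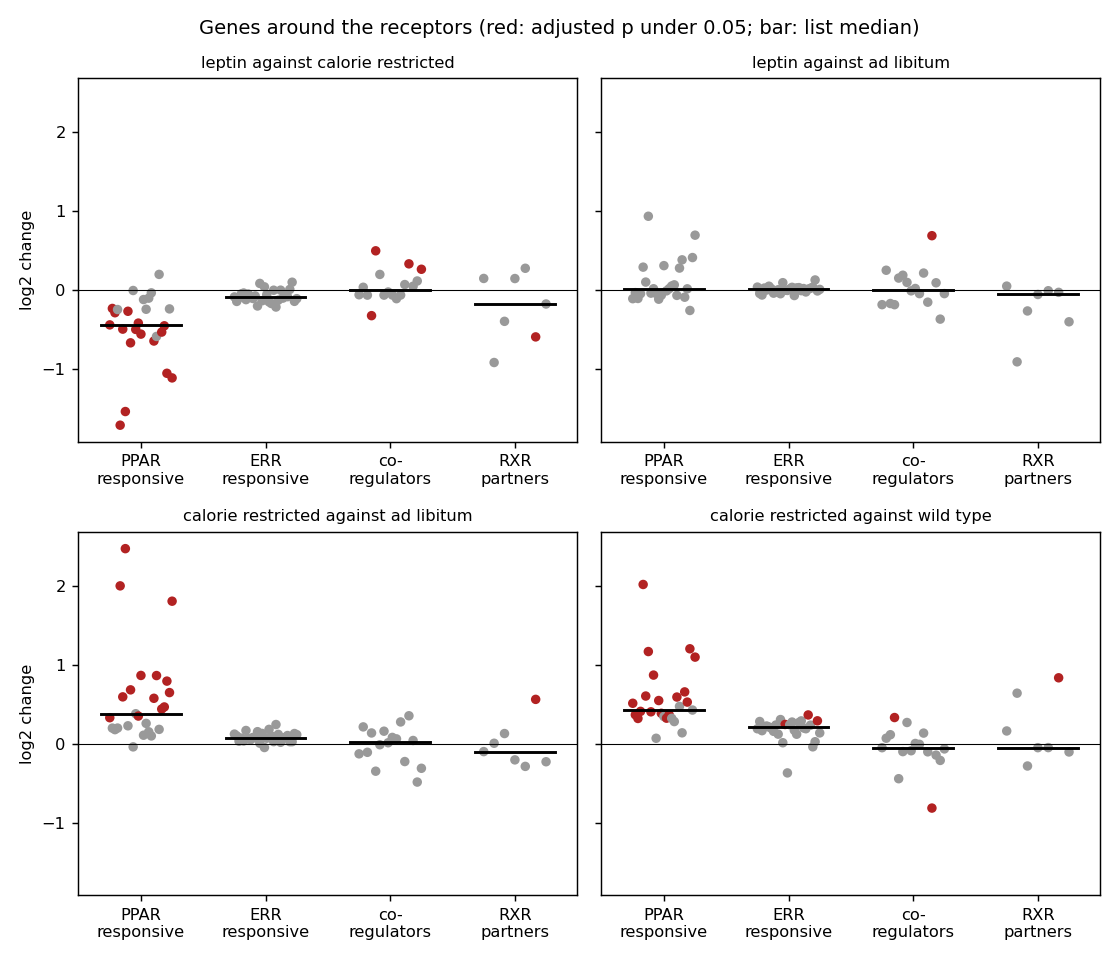
Log2 change (first-named group minus second) of each tested gene of 4 lists in 4 comparisons, with red for an adjusted p under 0.05 and a bar at the list median. PPAR responsive genes lie mostly below 0 in leptin against calorie restricted (median -0.44) and above 0 in calorie restricted against ad libitum (0.38) and against wild type (0.43), while ERR responsive genes stay near 0 except against wild type (0.21).

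Without calorie restricted replicates 2 and 3 the counts were 10 higher in calorie restricted against ad libitum, 15 higher in calorie restricted against wild type and 12 lower in leptin against calorie restricted. With the atrial covariate they were 9, 18 and 15. Under quantile normalization they were 13, 13 and 17. No gene of the list was called in the other direction under any of these settings.

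Slc27a1, a transporter that brings fatty acids into the cell, had the smallest p of the list in leptin against calorie restricted and in calorie restricted against wild type. Its signal was 349, 335, 341, 318 and 281 in leptin hearts, 632, 731, 637, 760 and 629 in calorie restricted hearts, 369, 468, 353 and 371 in ad libitum hearts, and 260, 283, 307 and 317 in wild type hearts. Every calorie restricted array stood above every array of the other groups. Leptin against calorie restricted was -1.05 ± 0.09 (SE; limma adjusted p = 3.54e-06), calorie restricted against ad libitum 0.79 ± 0.10 (adjusted p = 2.03e-04) and calorie restricted against wild type 1.20 ± 0.10 (adjusted p = 1.90e-06).

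Angptl4, which is secreted and blocks lipoprotein lipase, had 312, 252, 270, 189 and 97.1 in leptin hearts, 557, 663, 660, 813 and 435 in calorie restricted hearts, 112, 81.1, 126 and 112 in ad libitum hearts, and 451, 264, 208 and 214 in wild type hearts. The calorie restricted arrays lay above all others but wild type replicate 1, which reached the lowest of them. Leptin against calorie restricted was -1.53 ± 0.28 (SE; limma adjusted p = 0.00140). Angptl4 was also higher in calorie restricted than in wild type hearts by 1.17 (adjusted p = 0.0144), a call lost without calorie restricted replicates 2 and 3 (1.09, adjusted p = 0.0752). Ucp3, the mitochondrial carrier whose promoter is shown above, had 391, 253, 431, 332 and 170 in leptin hearts, 543, 729, 628, 850 and 555 in calorie restricted hearts, 196, 158, 215 and 168 in ad libitum hearts, and 367, 295, 276 and 278 in wild type hearts. Calorie restricted arrays of Ucp3 were above all others, and leptin against calorie restricted was -1.11 ± 0.20 (SE; adjusted p = 0.00164).

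Acot1 encodes a thioesterase that releases fatty acids from coenzyme A, and it has near-identical relatives that its probe set may also read. It averaged 189 ± 96.3 in leptin, 546 ± 102 in calorie restricted, 132 ± 12.6 in ad libitum and 130 ± 6.14 in wild type hearts (SD), with leptin replicate 5 at 49.8. Acot1 rose by 1.996 in calorie restricted against ad libitum (limma adjusted p = 0.00219) and by 2.01 in calorie restricted against wild type (adjusted p = 0.00109). Mlycd, which degrades malonyl-CoA, averaged 549 ± 64.9 in leptin, 856 ± 73.0 in calorie restricted, 572 ± 52.6 in ad libitum and 565 ± 41.6 in wild type hearts (SD), and fell in leptin against calorie restricted hearts by 0.64 on the log2 scale (adjusted p = 2.54e-04). Cpt1a, an isoform of the enzyme that admits fatty acids to mitochondria, averaged 320 ± 52.0 in leptin, 511 ± 91.7 in calorie restricted, 313 ± 24.8 in ad libitum and 275 ± 32.2 in wild type hearts (SD), and rose by 0.87 in calorie restricted against wild type (adjusted p = 5.37e-04), a call lost when its probe sets were averaged (0.56, adjusted p = 0.0593). Against ad libitum, Cpt1a rose by 0.68 (adjusted p = 0.00516), a call lost with the atrial covariate (0.60, adjusted p = 0.0584). Leptin replicate 5 was the lowest leptin array for Slc27a1, Angptl4, Ucp3, Acot1 and Mlycd.

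Of the 30 genes listed as responding to estrogen-related receptors, 28 were tested. Against wild type, 3 rose and 0 fell in calorie restricted hearts, where 5.61% of all genes rose and 7.03% fell, with a list median of 0.21 beside 0.00 for all genes. There 26 of 28 had a positive log2 change, and 17 of 28 had an unadjusted p under 0.05, against 26.1% of all genes. Positive values were also 27 of 28 in calorie restricted against ad libitum. Against wild type they were 26 in leptin and 25 in ad libitum hearts. They numbered 17 in leptin against ad libitum and 6 in leptin against calorie restricted. After quantile normalization the list median was -0.0075 in calorie restricted against ad libitum (0.08 as reported). It was then -0.021 in leptin against wild type (0.12 as reported) and 0.0046 in ad libitum against wild type (0.11 as reported). The ventricular markers were, as reported, also higher in calorie restricted than in wild type hearts (median 0.27). Their median there was -0.0016 after quantile normalization, and their part in the positive values of the list was not tested. The called genes were Uqcrc1, a core subunit of respiratory complex III (log2 change 0.29, limma adjusted p = 0.0292), Sdhd, a membrane subunit of complex II (0.37, adjusted p = 0.0318), and Idh3a, a subunit of a citric acid cycle enzyme (0.25, adjusted p = 0.0387). After quantile normalization none of these 3 was called, 0 genes of the list rose and 1 fell, and the median was -0.01, while with the atrial covariate 7 rose. Idh3a was not called without calorie restricted replicates 2 and 3 (0.27, adjusted p = 0.0737). In the other 5 comparisons limma called 0 of 28, with 0 to 2 at an unadjusted p under 0.05. Atp5g3, the ATP synthase subunit gene whose promoter is shown above, averaged 6243 ± 796 in leptin, 6868 ± 721 in calorie restricted, 6390 ± 477 in ad libitum and 5622 ± 162 in wild type hearts (SD) and was not called in any comparison.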

How the data were processed

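Total RNA from ventricular myocardium was labelled with biotin and hybridised to Affymetrix arrays, per the labels' protocols. The authors summarised each probe set to an intensity with MAS5, per the submitters' processing notes, and deposited these values on the linear scale. Its version is not given in the sources used here. The mean after trimming 2% at each end came to 100.001 for each of the 18 arrays. The values are thus scaled to a common level, and total RNA cannot be read from them. No detection calls were used. Of 45101 probe sets, the 34945 with 1 gene symbol were used. Each gene was taken as its probe set with the highest mean, and genes under the 40th percentile of mean log2(signal + 5.13) (4.70) were left out. Changes are on that log2 scale, which understates those of dim genes.

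Groups were compared in R 4.3.3 with limma 3.58.1 in 1 model over 18 arrays, two-sided, with Benjamini-Hochberg adjustment over 12328 genes in each comparison. The procedure was tested on simulated data. For arrays, their number limits the precision. The members and gene lists were chosen with earlier results of these data known. Named genes are the 9 receptors and up to 4 members of each list with the smallest p in a comparison. Every called coregulator or partner receptor is named as well. So are the 3 genes nearest in pattern to a called receptor, with unnamed cDNA clones and Gm-numbered genes passed over. Timm8b and Atp5g3 are named for their promoters. Alternatives were other pseudocounts (1, 32), filters, quantile normalization, array weights, a variance trend, averaged probe sets, a replicate block, an atrial covariate and left-out arrays. For arrays with the same replicate number in different groups, deviations from the group means had a median correlation of -0.02 over 25 pairs. Single pairs ran from -0.18 to 0.39. Arrays with other numbers had a median of 0.01 over 96 pairs. The RefSeq promoter table matched 9 of 9 receptors, 23 of 32 PPAR responsive genes and 22 of 30 ERR responsive genes. Some listed genes are not reported here.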

Additional observations from a re-analysis of the deposited data

Results flagged for a closer look

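Of 104 gene and group combinations checked for a single array far from the rest (the 9 receptors and 17 other named genes), 4 held one, and chance gives about 1 in 20. No receptor was among them. Mlycd was 436 in leptin replicate 5, against 558 to 599 in the other leptin arrays. Hk2 was 1531 in ad libitum replicate 1, against 1719 to 1749 in the other ad libitum arrays. Dnajb14 was 42.2 in calorie restricted replicate 2, 1 of the arrays with high atrial signal, against 63.6 to 73.3 in the others. Nifk was 122 in calorie restricted replicate 1, against 147 to 151 in the others.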

How the results depend on the processing

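Depth is not recorded for arrays, and 4 or 5 arrays a group limit what could be called. Over 31 other settings, 54 of 1110 receptor values changed sign, and none of those was called. The receptors called in leptin against calorie restricted numbered 2 as reported, 1 with only the groups compared in the fit, 1 with the atrial covariate and 0 without calorie restricted replicates 2 and 3. Those in calorie restricted against ad libitum numbered 1 (Ppard) with the filter at the 60th percentile, and 0 to 1 with single arrays left out. Those in calorie restricted against wild type numbered 1 to 2 with single arrays left out. The receptors that passed the F-test numbered 2 with that filter, with quantile normalization, with array weights and with a variance trend, and 1 to 2 with single arrays left out. Same-numbered arrays are not known to be paired. With the replicate number as a block no call of a receptor changed, and genes called numbered 13 in ad libitum against wild type and 42 in leptin against ad libitum. In ad libitum against wild type, 38 genes were called as reported, 13 without a filter, 66 with the filter at the 60th percentile, 8 with only the groups compared, 73 with array weights, 83 with a variance trend, 17 with the atrial covariate and 6 to 35 with single arrays left out. In leptin against ad libitum, 105 were called as reported, 54 without a filter, 22 with only the groups compared, 177 with a variance trend and 40 to 103 with single arrays left out. In calorie restricted against ad libitum, 785 were called as reported, 420 with only the groups compared, 335 with the atrial covariate, 387 without calorie restricted replicates 2 and 3, and 468 to 778 with single arrays left out. Without those 2 arrays, 1081 genes were called in leptin against calorie restricted (1894 as reported) and 938 in calorie restricted against wild type (1559 as reported). In leptin against wild type, 1 gene was called as reported, 2 with a pseudocount of 32 or the filter at the 60th percentile, 3 with array weights or a variance trend, and 1 to 5 with single arrays left out. PPAR responsive genes called in ad libitum against wild type numbered 0 as reported and 1 with the filter at the 60th percentile or a variance trend. In leptin against ad libitum they numbered 0 to 2 with single arrays left out, with 2 without leptin replicate 5. These genes numbered, in calorie restricted against ad libitum, 14 as reported, 9 with the atrial covariate and 9 to 12 with single arrays left out. Prdm16 turned to -0.15 in leptin against calorie restricted with averaged probe sets. The cause of these shifts was not tested. With averaged probe sets Esrrg went from 0.14 as reported to -0.14 in leptin against calorie restricted. Esrra went from 0.03 to -0.14 in leptin against wild type there. The receptor values that changed sign were otherwise small, and none was called. With array weights these were -0.0090 for Pparg in ad libitum against wild type, 0.013 for Rxra in leptin against ad libitum. With the atrial covariate these were 0.0074 for Rxra in ad libitum against wild type, 0.00011 for Esrrg in leptin against ad libitum, 0.014 for Rxrb and 0.082 for Esrra in calorie restricted against ad libitum, -0.026 for Esrra in leptin against wild type. With averaged probe sets these were 0.0041 for Esrrg and -0.035 for Esrra in ad libitum against wild type, 0.019 for Rxra in leptin against ad libitum, 0.070 for Esrrb, 0.046 for Esrrg and 0.0096 for Esrra in calorie restricted against ad libitum, -0.14 for Esrrg in leptin against calorie restricted, -0.14 for Esrra in leptin against wild type, 0.050 for Esrrg and -0.026 for Esrra in calorie restricted against wild type. After quantile normalization these were 0.00042 for Rxra in leptin against ad libitum. With the replicate block these were 0.034 for Rxra and 0.0064 for Esrrg in leptin against ad libitum, 0.016 for Rxra in leptin against wild type. Without calorie restricted replicates 2 and 3 these were -0.057 for Rxra in calorie restricted against ad libitum, -0.0076 for Pparg and 0.050 for Rxra in leptin against calorie restricted, -0.075 for Rxra in calorie restricted against wild type. With single arrays left out, in ad libitum against wild type Rxrg ran between -0.0016 and 0.17, Pparg ran between -0.056 and 0.16, Rxra ran between -0.069 and 0.048 and Esrrg ran between -0.063 and 0.0054, in leptin against ad libitum Rxra ran between -0.073 and 0.044 and Esrrg ran between -0.055 and 0.023. In calorie restricted against ad libitum Rxrg ran between -0.0039 and 0.081, Pparg ran between -0.030 and 0.16 and Rxra ran between -0.0049 and 0.11. In leptin against calorie restricted Esrra ran between -0.10 and 0.024. In leptin against wild type Rxra ran between -0.066 and 0.016, Esrrg ran between -0.077 and 0.00094 and Esrra ran between -0.042 and 0.085. In calorie restricted against wild type Rxra ran between -0.020 and 0.084.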
